A study of Homo sapiens with 48 samples.

Results

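The DMAP1 knockout of this series consists of 2 libraries of A382 cells, a human glioblastoma line long established in culture, that were infected with a lentivirus carrying guide RNA sgDMAP1 number 1 or number 2. The members were chosen by their labels and table columns: the 2 sgDMAP1 libraries and the 2 libraries of the control sgNeg2, 4 of the 48 libraries in the series. All 4 were collected at day 9 after infection, and polyadenylated RNA was sequenced from strand-specific libraries. The series addresses what the loss of single subunits of the EP400/TIP60 chromatin complex does to gene expression in glioblastoma cells. The other knockouts used below are GAS41, EP400 and TIP60, with 2 libraries each, 1 per guide, in the same line at the same day. The labels do not say whether libraries of a group are from separate cultures. A p-value here measures no more than the spread among the libraries. In the knockout groups that spread includes differences between guides, and apart from these it is possibly only technical. The pooled comparison takes the 2 sgDMAP1 guides as replicates of 1 condition. Each sgDMAP1 guide has 1 library, the labels number the sgNeg2 libraries without saying whether they share a guide sequence, and the infected cells are described as neither clones nor sorted cells.

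DMAP1 (DNA methyltransferase 1-associated protein 1) is a shared subunit of 2 chromatin complexes. In the EP400/TIP60 complex, an ATPase (EP400) exchanges the histone variant H2A.Z into nucleosomes and an acetyltransferase (TIP60, gene KAT5) acetylates histones and other proteins, p53 among them. The SRCAP complex also deposits H2A.Z, contains DMAP1 and GAS41 (gene YEATS4), and has no acetyltransferase of its own. DMAP1 was first described as a partner of the DNA methyltransferase DNMT1.

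Expression was deposited as FPKM, fragments mapped to a gene scaled by its transcript length and by the depth of the library. The table was normalized in sections, and the section with sgNeg2 holds 20 usable libraries of 11 targets. Testing covered the 11382 genes that reached 1 FPKM in 2 or more libraries of this section, with limma on log2(FPKM + 1). A difference below is on that scale, as mean ± standard error, and understates the change of weakly expressed genes. Called means an adjusted p under 0.05, with Benjamini-Hochberg adjustment across the 11382 genes. Between 10628 and 10733 genes reached an FPKM of 1 in each of the 4 libraries. Of 10 glial and glioblastoma markers, 5 had an FPKM of at least 1 in all 4 libraries, with VIM (vimentin) at 5527 to 6138, while GFAP was at most at 0.161 and OLIG2 and CHI3L1 were listed at 0. All 6 epithelial and all 5 endothelial markers failed that level in at least 1 of the 4 libraries, and of 6 immune markers only CD68, at 14.6 to 24.8, met it. The sgNeg2 libraries differed from each other by transcript length: replicate 1 minus replicate 2 had a median of 0.30 for transcripts up to 1000 bases and -0.19 for those over 6000, while the medians of the DMAP1 difference in the same classes were -0.06 and 0.03.

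DMAP1 mRNA itself was lower with both guides. Its level was 30.3 and 22.5 FPKM in the sgNeg2 libraries, 10.2 with guide 1 and 11.2 with guide 2. The group means were 26.4 ± 5.54 (SD, n = 2) for sgNeg2 and 10.7 ± 0.696 (SD, n = 2) for sgDMAP1, or 40.5% of control. Both sgDMAP1 libraries stood below every other library of the section, where DMAP1 ranged from 19.3 to 33.5 with a median of 24.7 over 18 libraries. The difference was -1.22 ± 0.18 and was not called (limma, adjusted p = 0.0642). By guide it was -1.28 ± 0.23 for guide 1 (adjusted p = 0.0384, called) and -1.15 ± 0.23 for guide 2 (adjusted p = 0.876). The guides differed from each other by -0.12 ± 0.26. The pooled difference was called after a trend with transcript length had been removed from each library (-1.17, limma, adjusted p = 0.00516), a step added after seeing the data. It was also called after rescaling by median ratios (adjusted p = 0.0337) and with a replicate block (adjusted p = 0.0328). It was not called without the filter on low values (adjusted p = 0.181), with the spread of the 4 libraries alone (0.163) or without the intensity trend (0.0867). Frameshifts made by guides need not lower an mRNA, and DMAP1 protein was not measured here.

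**Figure D1:**
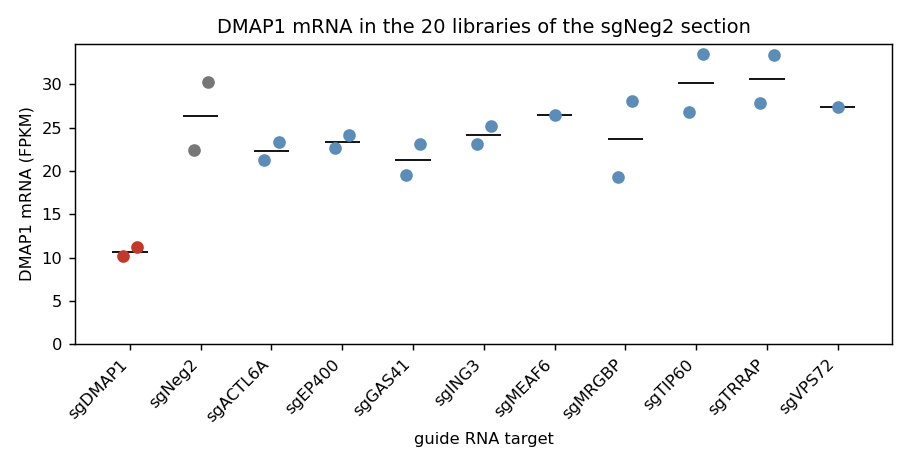
DMAP1 mRNA in FPKM (vertical axis, linear from 0) in each of the 20 libraries of the sgNeg2 section, by guide RNA target (horizontal axis). Points are libraries and bars are group means; the 2 sgDMAP1 points, at 10.2 and 11.2, lie below all others, the lowest of which is 19.3.

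Across the transcriptome the pooled comparison of 2 sgDMAP1 with 2 sgNeg2 libraries called 0 of 11382 genes (0%). At an unadjusted p under 0.05 it held 1021 genes (8.97%), of which 387 (3.4%) were higher and 634 (5.57%) lower. Both guides lay above both controls in 2158 genes (19%) and below both in 2610 (22.9%). The median difference over all genes was -0.005. Guide 1 alone had 40 called genes (0.351%), 11 higher (0.0966%) and 29 lower (0.255%), and guide 2 alone had 0 (0%), with 222 genes at an unadjusted p under 0.05 (1.95%). Each guide is 1 library, so these tests assume that it varies like the libraries of the other groups, and a call describes that library. Guide 1 also spread wider: the SD over genes of the difference from control was 0.307 for guide 1 and 0.185 for guide 2. Between the 2 sgNeg2 libraries it was 0.247, but that sets 1 library against 1 and not against a mean of 2, so it is not a like measure. In 8969 of the 11382 genes the guide 1 difference lay beyond that of guide 2, in the direction of guide 1. This count takes its direction from guide 1, so it favours guide 1 by construction. The mirrored count for guide 2 was not made, so it does not show that guide 1 acts more strongly. The count for guide 1 rested on both controls, since it was 0 without sgNeg2 replicate 1 and 1 without sgNeg2 replicate 2.

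Genes of cholesterol and fatty acid synthesis had the highest median difference among the lists with at least 10 tested members. Sterol synthesis runs from acetyl-CoA through HMGCS1 to squalene, SQLE and the later demethylases and reductases that make cholesterol. Its genes are known targets of the SREBP transcription factors (genes SREBF1 and SREBF2), which are held inactive in the endoplasmic reticulum by INSIG proteins when sterols are plentiful. Of 34 listed genes 31 were tested, and 25 of these (80.6%) had both guides above both controls, against 19% of all genes. None had both guides below both controls. The median difference was 0.39, with 0.47 for guide 1 and 0.27 for guide 2, while the 2 sgNeg2 libraries differed by a median of 0.03. In the pooled comparison 0 members were called, and 15 were higher at an unadjusted p under 0.05. With guide 1, 4 were called higher (HMGCS1, INSIG1, SQLE and IDI1) and 0 lower. The list's pooled median was 0.39 without sgNeg2 replicate 1 and 0.32 without sgNeg2 replicate 2. Leaving out a sgDMAP1 library only returns the median of the other guide. The guide 1 calls rested on both controls.

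HMGCS1, which makes HMG-CoA, was at 7.91 and 8.71 FPKM in the controls, 17.1 with guide 1 and 13.6 with guide 2. Both guides exceeded each of the other 18 libraries of the section, the highest of which was at 13. The difference was 0.80 ± 0.13 (limma, adjusted p = 0.0755), and guide 1 alone gave 0.96 ± 0.15 (adjusted p = 0.0289). INSIG1, which retains the SREBP escort protein and is itself an SREBP target, was at 11.1 and 10.2 in the controls, 25.3 with guide 1 and 19.1 with guide 2. Guide 1 stood above all other libraries, and guide 2 was passed by 1 GAS41 library at 21.0. Its difference was 0.99 ± 0.18 (adjusted p = 0.140), or 1.18 ± 0.21 with guide 1 (adjusted p = 0.0409). SQLE, squalene epoxidase, was at 23.0 and 24.5 in the controls, 47.5 with guide 1 and 35.2 with guide 2. The guides did not overlap the controls, and the pooled difference was 0.76 ± 0.16. The following genes of the pathway were picked after their values were seen. IDI1, the isopentenyl diphosphate isomerase, was at 19.9 and 18.7 against 37.8 and 25.5, and the sterol demethylation enzyme MSMO1 at 31.3 and 30.9 against 55.5 and 43.3. FASN, the fatty acid synthase, was at 66.0 and 66.1 in the controls, 121 with guide 1 and 93.6 with guide 2. In each of these 3 genes the order was the same, with guide 1 highest, guide 2 next and the controls lowest. The regulator SREBF2 stood at 31.6 and 35.2 against 48.9 and 41.5. Its paralog SREBF1 stayed close to control, at 43.6 and 41.5 against 45.6 and 45.1.

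**Figure D2:**
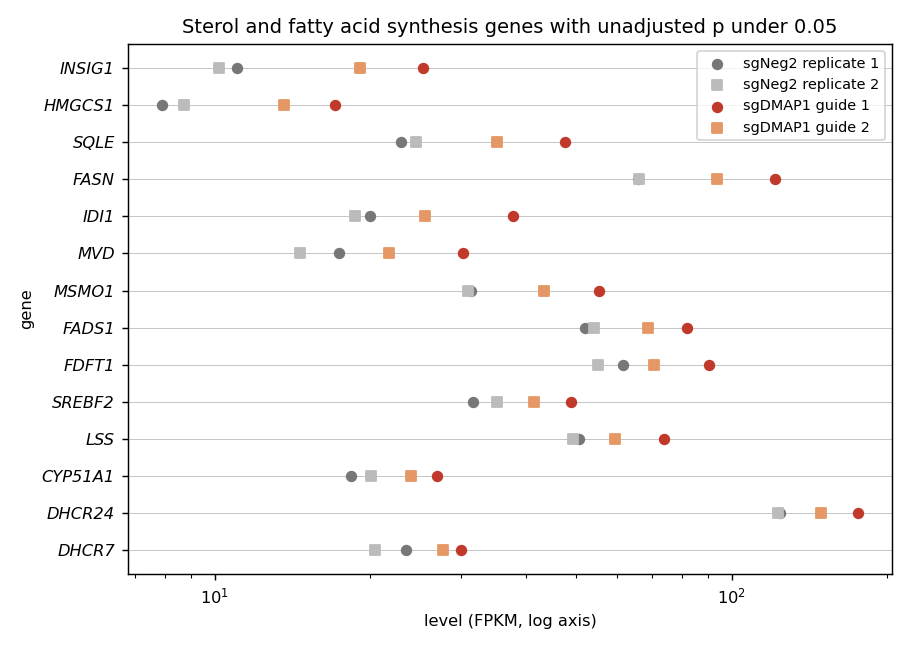
FPKM (horizontal, log axis) of 14 of the 15 genes of sterol and fatty acid synthesis with an unadjusted p under 0.05 in the pooled comparison (vertical axis, ordered by difference). Points are the 4 libraries; in each gene both sgDMAP1 points lie to the right of both sgNeg2 points and guide 1 is the farthest, as for INSIG1 at 25.3 and 19.1 against 11.1 and 10.2.

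The promoters of these genes are shown because the members stood higher together. RefSeq windows on GRCh38.p14, the 250 bases before a start site, were found by symbol for 25 of the 31 tested genes (33 windows). A scan of both strands counted the letters CCAAT (the NF-Y box, ATTGG on the other strand) and TCACNCCAC (a form of the sterol regulatory element, GTGGNGTGA on the other strand). CCAAT letters were in 22 of the 33 windows (66.7%), against 32.0% of all 35116 windows of this length, 76.2% for the list of G2/M genes and 49.0% for the list of p53 targets. TCACNCCAC was in 1 of the 33 windows (3.03%), that of SREBF2, against 0.883% of all windows. A CCAAT and an ATTGG can share letters, and no match of TCACNCCAC overlapped a CCAAT in the windows printed. A match is a run of letters and not a measured binding site. Windows of 1 gene can overlap and count the same match more than once, as for ACLY. The 4 windows below read 5′ to 3′ on the gene's strand and end at the base before the start site, with matches in capitals. They are HMGCS1 (chr5:43313413-43313662, minus strand), INSIG1 (chr7:155297628-155297877, plus strand), MSMO1 (chr4:165327419-165327668, plus strand) and SREBF2 (chr22:41832855-41833104, plus strand).
HMGCS1: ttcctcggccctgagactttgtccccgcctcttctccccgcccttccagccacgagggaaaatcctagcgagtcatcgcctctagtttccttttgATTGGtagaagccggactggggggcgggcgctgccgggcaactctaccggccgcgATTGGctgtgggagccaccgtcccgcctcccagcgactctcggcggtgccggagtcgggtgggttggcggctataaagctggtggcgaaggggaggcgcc
INSIG1: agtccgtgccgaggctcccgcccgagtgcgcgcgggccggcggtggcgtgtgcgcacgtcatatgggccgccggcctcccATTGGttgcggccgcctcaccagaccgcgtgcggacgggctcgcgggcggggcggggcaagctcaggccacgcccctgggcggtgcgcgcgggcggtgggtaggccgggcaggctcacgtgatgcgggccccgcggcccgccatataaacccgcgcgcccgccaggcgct
MSMO1: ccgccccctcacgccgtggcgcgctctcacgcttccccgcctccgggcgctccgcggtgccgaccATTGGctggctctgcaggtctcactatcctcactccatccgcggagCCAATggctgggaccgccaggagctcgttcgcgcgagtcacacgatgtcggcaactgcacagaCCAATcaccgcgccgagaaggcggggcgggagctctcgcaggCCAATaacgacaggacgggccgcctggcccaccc
SREBF2: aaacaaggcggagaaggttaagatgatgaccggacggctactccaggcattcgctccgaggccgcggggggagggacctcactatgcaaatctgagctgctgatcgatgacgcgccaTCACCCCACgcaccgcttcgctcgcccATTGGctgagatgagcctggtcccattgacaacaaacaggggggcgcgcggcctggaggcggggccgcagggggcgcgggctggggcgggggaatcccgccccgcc
The HMGCS1 window printed carries 2 ATTGG matches, while a second HMGCS1 window, at chr5:43313182-43313431, carries 0 of either motif. INSIG1 carries 1, MSMO1 carries 4 over both strands, and SREBF2 carries 1 with the TCACNCCAC match upstream of it. The windows of CYP51A1, FADS1, FADS2, PMVK, SREBF1 and ELOVL6, not printed, carry 0 of either motif.

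Genes of the ATF4 amino acid response also had higher values, mostly with guide 1. ATF4 is a transcription factor whose translation increases under amino acid shortage and other stress, and its targets include amino acid transporters, serine synthesis enzymes and tRNA synthetases. Of 34 listed genes 31 were tested. In 17 (54.8%) both guides lay above both controls and in 1, ATF3, below, against 19% and 22.9% of all genes. The median was 0.33, split into 0.57 for guide 1 and 0.15 for guide 2, and the sgNeg2 libraries differed from each other by a median of 0.23. None was called for either guide, and 8 were higher at an unadjusted p under 0.05. CHAC1, which degrades glutathione, was at 30.8 and 31.2 FPKM in the controls, 89.1 with guide 1 and 46.4 with guide 2 (1.03 ± 0.29, limma, adjusted p = 0.298). TRIB3, a pseudokinase induced by ATF4, was at 39.8 and 28.6 against 98.1 and 45.7. MTHFD2, of mitochondrial folate metabolism, was at 76.7 and 69.3 against 155 and 91.3, and PSAT1, of serine synthesis, at 71.5 and 60.6 against 150.4 and 85.8. In these 4 genes guide 2 stood nearer to the controls than to guide 1. The transcript of ATF4 itself was at 328 and 279 against 452 and 342 (0.38 ± 0.23). ATF3, another stress factor, went the other way, from 16.3 and 36.3 to 12.9 and 14. These last genes were picked after their values were seen.

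Over the whole transcriptome, the 10 largest upward differences with both guides above both controls included RPL17-C18orf32, ANO1, DLL4, CHAC1, INSIG1, CPA4, TRIB3, WNT5B and FAM171B. None was called in the pooled comparison. RPL17-C18orf32 (0 and 1.70 against 4.91 and 7.29 FPKM) is a readthrough gene that shares its sequence with both parent genes, and its value is uncertain. ANO1, a calcium-activated chloride channel, was at 15.3 and 23.0 in the controls, 55.8 with guide 1 and 31.1 with guide 2. DLL4, a Notch ligand, was at 2.76 and 3.10 against 9.24 and 5.73. WNT5B, a Wnt ligand, was at 7.88 and 5.58 against 17.4 and 10.7. In all of these except RPL17-C18orf32 guide 1 had the higher value of the guides. CPA4, a carboxypeptidase, had a difference of 0.98 ± 0.38, and FAM171B one of 0.92 ± 0.32.

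The 10 largest downward differences included C1orf54, CA11, SERPINF1, DMAP1, ANG, FAM69B, C7, LMO2 and ST3GAL5, again with 0 called. C1orf54 was at 24.0 and 16.6 in the controls, 3.64 with guide 1 and 10.0 with guide 2. SERPINF1, the secreted anti-angiogenic factor PEDF, was at 36.4 and 32.4 against 9.91 and 18.6. ANG, the secreted ribonuclease angiogenin, was at 9.62 and 7.19 against 2.40 and 3.80. C7, a component of the complement membrane attack complex, was at 6.32 and 9.17 against 2.40 and 4.49. Guide 1 was the lower guide in each of these genes. ST3GAL5, the sialyltransferase that makes ganglioside GM3, was at 42.1 and 36.5 against 17.1 and 21.5 (-0.995 ± 0.211), and the LIM-domain factor LMO2 had -0.996 ± 0.506. DMAP1 was the only one of these genes in which both guides were at nearly the same level.

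The 40 genes called with guide 1 had guide 2 between guide 1 and both controls in all 40. This intermediate place is partly a result of the choice, since the genes were taken for an extreme guide 1 value. Guide 1 lay beyond guide 2, in the direction of the guide 1 difference, in 8969 of all 11382 tested genes, a count that also favours guide 1 by construction. Of these 40, 36 were also among the 90 of 11099 genes (0.811%) called for guide 1 after the length trend had been removed. ANO1 (1.52 ± 0.22, limma, adjusted p = 0.0163) and DLL4 (1.38 ± 0.27, adjusted p = 0.0456) rose most with guide 1. KCNG1, a modifier subunit of potassium channels, rose from 46.8 and 50.0 to 115, with guide 2 at 65.2. ACTA2, smooth muscle actin, rose from 18.9 and 19.8 to 44.4, with guide 2 at 22.7. CD82, a tetraspanin, and TRIM22, an antiviral ubiquitin ligase, both p53 targets, rose by 0.96 ± 0.18 and 0.85 ± 0.16. IDI1, SQLE, INSIG1 and HMGCS1 complete the 10 largest rises. The fall of CA11, a carbonic anhydrase-related protein without enzyme activity, was the largest, from 10.9 and 9.21 to 1.46 (-2.16 ± 0.38, adjusted p = 0.0384), with guide 2 at 6.67. FAM69B fell from 7.91 and 7.52 to 1.95 and TRO, which encodes the adhesion protein trophinin, from 9.26 and 8.71 to 2.77, with guide 2 at 4.44 and 6.17. The other falls among the 10 largest were PLEKHA4, FAM63A, DMAP1, FBXO44 (a substrate receptor of SCF ubiquitin ligases), HEXIM2 (an inhibitor of the elongation factor P-TEFb), SLC16A4 (a monocarboxylate transporter family member) and TSPAN15 (a tetraspanin). Their guide 1 differences ran from -1.56 ± 0.25 for PLEKHA4 to -1.10 ± 0.19 for TSPAN15.

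**Figure D3:**
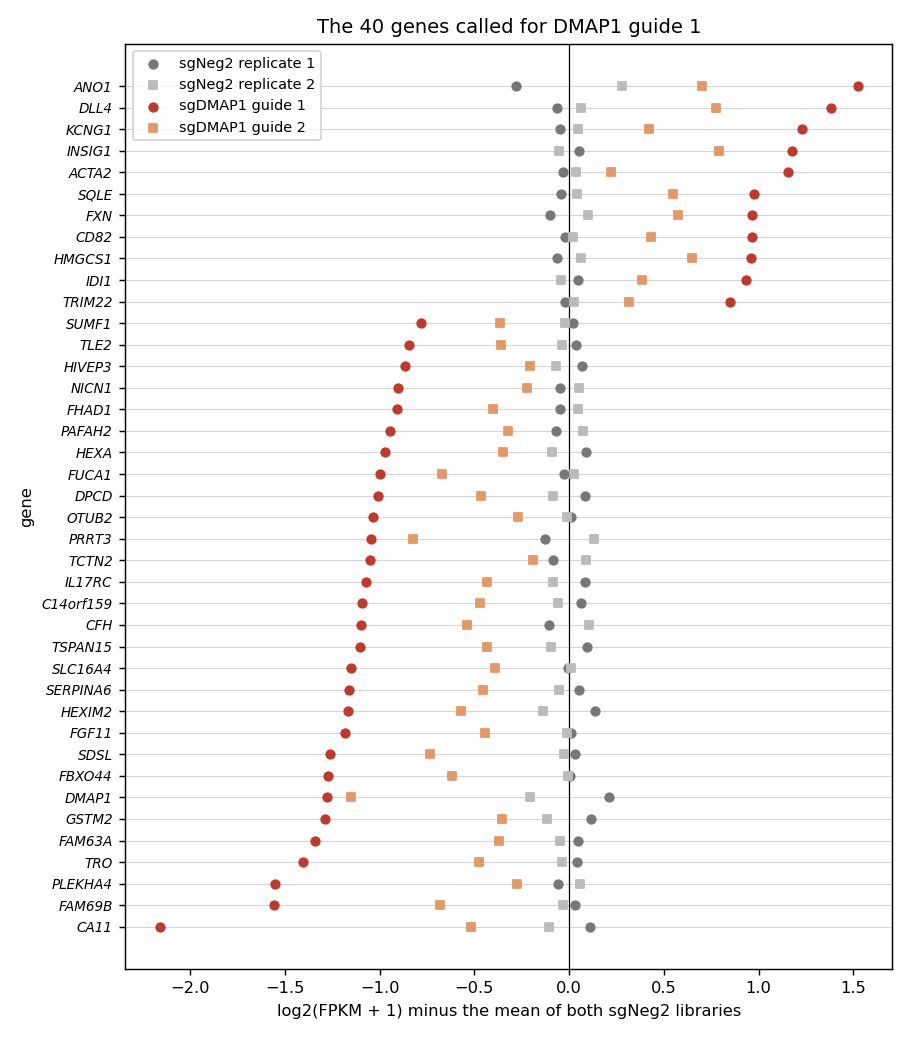
log2(FPKM + 1) minus the mean of both sgNeg2 libraries (horizontal axis) for the 40 genes called with DMAP1 guide 1 (vertical axis, ordered by the guide 1 difference). Points are the 4 libraries; guide 2 lies between guide 1 and both controls in all 40, and only for DMAP1, at -1.28 and -1.15, do the guides nearly coincide.

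The guides were also compared directly, which uses no control. Of 11382 genes 0 were called (0%), and 288 (2.53%) had an unadjusted p under 0.05. With 1 library on each side, this test assumes that a lone library varies like the other groups, and it does not show that the guides act alike. HMGCS1 differed by 0.31 ± 0.18 between the guides and INSIG1 by 0.39 ± 0.25. ACTA2 differed by 0.94 ± 0.25 and PLEKHA4 by -1.28 ± 0.29, which are among the larger gaps of the named genes.

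p53 target genes had more values above control than below it, with a smaller median than the sterol list. p53 is the tumour suppressor that halts the cell cycle through CDKN1A (p21) and is held down by its own target MDM2. Of 46 tested members 19 (41.3%) had both guides above both controls, against 19% of all genes, and 0 had both below. The median was 0.19, with 0.28 for guide 1 and 0.08 for guide 2, while the sgNeg2 libraries differed by a median of -0.01. CDKN1A was at 223 and 207 FPKM in the controls, 254 with guide 1 and 212 with guide 2. The groups overlapped, and the difference was 0.11 ± 0.23 (95% interval -0.39 to 0.61). MDM2 was at 25.4 and 25.6 against 34.5 and 25.9, a difference of 0.22 ± 0.18. The 4 members with the smallest p included CD82 (12.04 and 12.4 against 24.8 and 16.8), TRIM22 (19.1 and 19.7 against 35.8 and 24.4) and EDA2R, a receptor for the TNF family ligand ectodysplasin (12.1 and 13.8 against 20.4 and 16.3). Each had guide 1 highest, and CD82 and TRIM22 were called with guide 1.

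Cell cycle genes also had mostly higher values with DMAP1 guides. Of 40 G2/M and mitosis genes, 23 (57.5%) had both guides above both controls and 0 below, against 19% and 22.9% of all genes, with a median of 0.28 (guide 1 0.34, guide 2 0.17). The sgNeg2 libraries differed from each other by a median of 0.26 in the same genes, about as much, and the list's median ran from 0.13 to 0.36 when 1 library was left out. FOXM1, the transcription factor of the mitotic programme, was at 56.6 and 42.2 FPKM in the controls, 74.2 with guide 1 and 66.0 with guide 2. HMMR, a spindle protein, was at 19.5 and 17.2 against 27.1 and 23.0, the cytokinesis protein ANLN at 20.04 and 21.1 against 28.96 and 26.7, and the checkpoint protein BUB3 at 74.7 and 70.0 against 96.3 and 81.4. Of 42 G1/S and replication genes, 19 (45.2%) had both guides above and 3 below, with a median of 0.18. That median was 0.27 without sgNeg2 replicate 1 and 0.038 without sgNeg2 replicate 2, and the sgNeg2 libraries differed by a median of 0.24 in these genes. MCM4, of the replicative helicase, was at 30.7 and 29.1 against 42.4 and 38.3, the transcription factor E2F1 at 18.9 and 15.5 against 24.0 and 22.3, the replication factor GINS4 at 4.40 and 4.06 against 6.19 and 4.74, and the histone mRNA binder SLBP at 27.0 and 24.8 against 34.4 and 30.1. None of these genes was called.

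The partners of DMAP1 had values nearer to control. Over the 19 subunits of the EP400/TIP60 complex the median was 0.03, with 2 members (10.5%) above and 2 (10.5%) below both controls, DMAP1 among the latter. Both shares were under those of all genes, 19% above and 22.9% below. After DMAP1 the smallest p-values belonged to VPS72, the H2A.Z-binding subunit (35.7 and 28.1 against 23.1 and 28.5 FPKM, overlapping), ACTB, the actin subunit (2042 and 1786 against 2747 and 2199, both above), and EPC2, an enhancer of polycomb homolog (5.47 and 6.84 against 6.93 and 7.18, both above). The subunits other than DMAP1 lay between -0.29 ± 0.19 for VPS72 and 0.36 ± 0.25 for ACTB, and none was called. Of 3 subunits specific to the SRCAP complex, ZNHIT1 was lower with both guides (61.1 and 43.3 against 33.0 and 39.0), SRCAP, its ATPase, was at 11.7 and 13.3 against 15.1 and 14.9, and ACTR6 overlapped (10.6 and 10.4 against 11.7 and 10.5). The H2A.Z genes H2AFZ (414 and 305 against 478 and 416) and H2AFV (67.1 and 59.4 against 72.6 and 74.5) had both guides above both controls, with differences of 0.33 ± 0.24 and 0.22 ± 0.15. The DNA damage variant H2AFX overlapped (52.2 and 35.0 against 49.5 and 49.2), and macroH2A2, H2AFY2, was at 13.7 and 11.8 against 8.16 and 11.7. Of the 6 tested H2A variant genes 0 were called.

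Because DMAP1 was first found with DNMT1, the genes of DNA methylation and its readers were listed too. Of 18 tested, 8 (44.4%) had both guides above both controls and 2 (11.1%) below, against 19% and 22.9% of all genes, with a median of 0.06 (0.095 without sgNeg2 replicate 1). HDAC1, a histone deacetylase, was at 51.7 and 43.7 FPKM against 33.6 and 37.3 (-0.41 ± 0.12, limma, adjusted p = 0.302). PCNA, the replication clamp to which DNMT1 binds, was at 136 and 123 against 196 and 164 (0.47 ± 0.17). UHRF1, which brings DNMT1 to hemimethylated DNA, was at 8.29 and 7.996 against 11.4 and 9.86. The guides did not overlap the controls in these 3 genes, and none was called. Of 35 germline genes silenced by DNA methylation in most somatic cells, 33 were in the table and 4 passed the filter on low values, with differences from -0.28 to 0.34.

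Interferon and HOX genes were below both controls more often than above them. Interferon-stimulated genes, which encode antiviral proteins, had 13 of 25 tested members (52%) with both guides below both controls, against 22.9% of all genes, and 4 above, with a median of -0.21 (guide 1 -0.20, guide 2 -0.14). ISG15, a ubiquitin-like modifier, was at 38.1 and 28.95 FPKM against 17.5 and 23.2, PARP9 at 5.73 and 6.01 against 3.66 and 4.56, and IFI44L at 1.32 and 1.28 against 0.252 and 0.830. IRF7, the factor that amplifies the interferon response, was among the 4 above (2.07 and 1.78 against 3.22 and 2.64). HOX genes, the positional regulators of the body axis, had 11 of 25 (44%) below and 2 above, with a median of -0.17 (guide 1 -0.23, guide 2 -0.093). HOXB13 was at 3.83 and 3.82 against 1.95 and 2.96, HOXB5 at 8.76 and 8.53 against 6.22 and 6.92, and HOXC11 at 3.05 and 2.47 against 1.94 and 2.11, while HOXC5 overlapped (7.45 and 5.35 against 2.41 and 5.86). None of these members was called for either guide.

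Lysosome and vacuolar ATPase genes had 15 of 33 (45.5%) below and 4 above, against 22.9% and 19% of all genes, with a median of -0.12 (-0.075 without sgNeg2 replicate 1). HEXA, a subunit of the hexosaminidase that breaks down gangliosides, fell with guide 1, from 30.3 and 26.7 FPKM to 14 (-0.97 ± 0.17, limma, adjusted p = 0.0384), with guide 2 at 22.1. PSAP, the precursor of the saposins, was at 937 and 993 against 644 and 808. NPC1, which exports cholesterol from the lysosome and is also controlled by sterols, was above both controls (4.01 and 3.69 against 5.15 and 4.91). Chaperones of the endoplasmic reticulum and the unfolded protein response had 10 of 25 (40%) below and 2 above, with a median of -0.13 (guide 1 -0.21, guide 2 -0.080). The cochaperone DNAJB11 was at 47.7 and 45.1 against 32.9 and 40.2, the disulfide isomerase PDIA6 at 145 and 144 against 105 and 129, CRELD2 at 38.9 and 32.3 against 23.2 and 30.6, and CRELD1 at 15.97 and 17.2 against 12.3 and 13.4. Nuclear-encoded oxidative phosphorylation subunits had 16 of 75 (21.3%) below, near the 22.9% of all genes, and 2 above. Their median was -0.12, but it changed sign to 0.035 without sgNeg2 replicate 1 and was -0.27 without sgNeg2 replicate 2. The sgNeg2 libraries differed by a median of 0.29 in them. NDUFS5 (508 and 425 against 322 and 330.4) and NDUFB1 (265 and 226 against 182 and 181), both of complex I, were lower, and SDHA of complex II was higher (71.7 and 61.4 against 92.2 and 82.9).

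Matricellular proteins, laminins and matrix proteases had 10 of 33 (30.3%) below and 7 (21.2%) above, near the 22.9% and 19% of all genes. SPARC, a collagen-binding matrix protein, was at 409 and 423 FPKM against 208 and 277, TIMP3, an inhibitor of metalloproteases, at 46.7 and 59.1 against 28.03 and 34.9, and THBS3, a thrombospondin, at 16.2 and 15.0 against 9.12 and 12. FBLN5, a protein of elastic fibres, was above both controls (14.9 and 18.5 against 30.6 and 23.0; 0.64 ± 0.15, limma, adjusted p = 0.230). Targets of YAP/TEAD, the effectors of the Hippo pathway, had 8 of 20 (40%) above and 0 below. Their median was 0.19, or 0.076 without sgNeg2 replicate 1 and 0.34 without sgNeg2 replicate 2, and the sgNeg2 libraries differed by a median of -0.24 in them. AXL, a receptor tyrosine kinase, was at 42.9 and 38.3 against 64.8 and 50.5, ASAP1 at 27.0 and 31.9 against 43.2 and 36.6, and AMOTL2 at 14.2 and 16.3 against 26.9 and 17.4, while F3, tissue factor, overlapped (4.53 and 6.62 against 6.89 and 6.53). None of these genes was called.

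**Figure D4:**
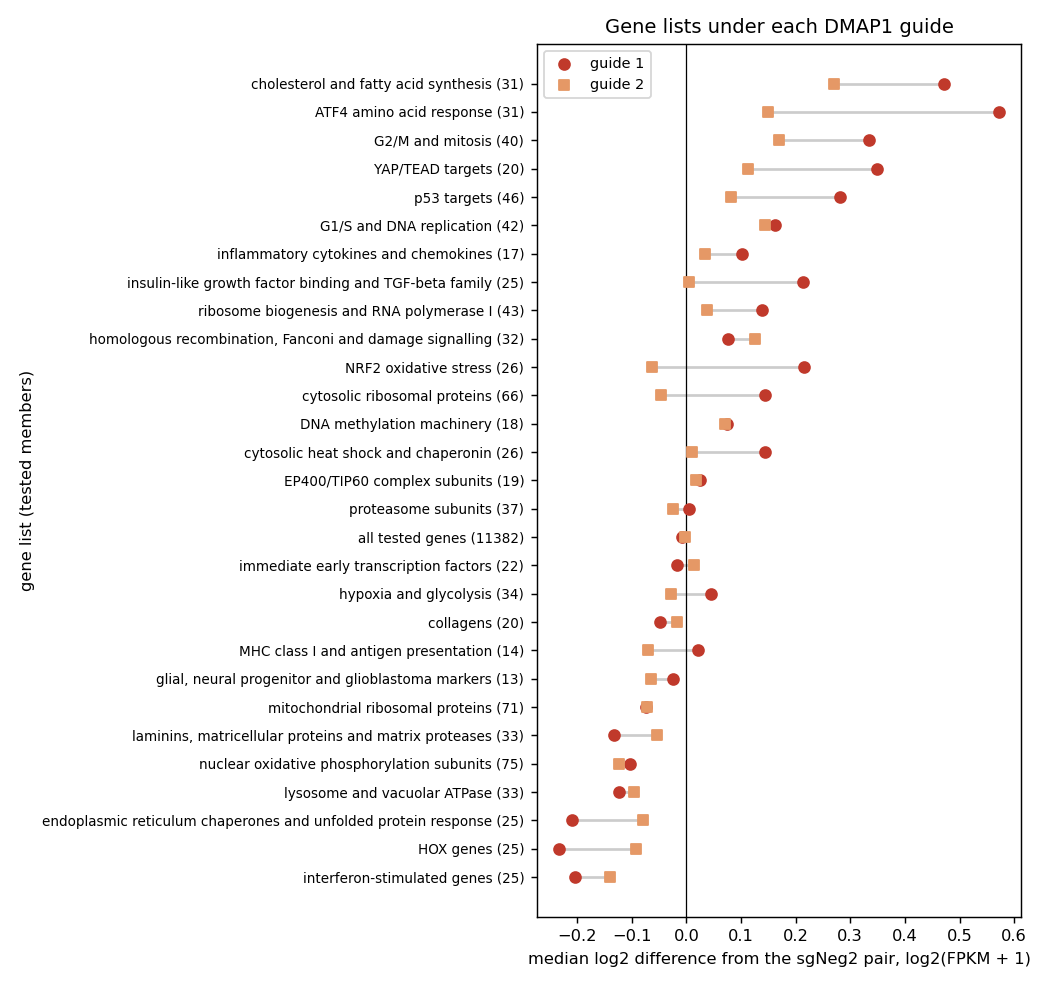
Median difference from the sgNeg2 pair in log2(FPKM + 1) (horizontal axis) for each gene list with at least 10 tested members and for all tested genes (vertical axis, number tested in brackets). Circles are guide 1 and squares guide 2; the sterol list has 0.47 and 0.27, the ATF4 list 0.57 and 0.15, and all genes lie at -0.01 and -0.00.

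DMAP1 was next compared directly with 3 other knockouts of the section, which uses no control library. Against GAS41, like DMAP1 a subunit of both the EP400/TIP60 and the SRCAP complex, 3 of 11382 genes were called (0.0264%), all lower with DMAP1 guides. SRGN, the secretory proteoglycan serglycin, was at 8.73 and 6.61 FPKM with DMAP1 guides and 24.3 and 29.5 with GAS41 guides (-1.69 ± 0.27, limma, adjusted p = 0.0467). P3H2, a collagen prolyl hydroxylase, was at 5.07 and 3.44 against 10.6 and 14.5, and SLC2A1, the glucose transporter GLUT1, at 14.4 and 12.4 against 23.0 and 25.3. The sgNeg2 libraries had 9.08 and 8.94 for SRGN, 3.93 and 3.58 for P3H2 and 15.7 and 16.9 for SLC2A1, close to the DMAP1 libraries. The count was 19 without sgGAS41 replicate 1, 0 without sgGAS41 replicate 2, 1 without sgDMAP1 replicate 1 and 0 without sgDMAP1 replicate 2. Of the 31 sterol genes 0 were called against GAS41, with a median of 0.16, and of the 31 ATF4 genes 0, with a median of 0.02. That ATF4 median was -0.33 without sgDMAP1 replicate 1 and 0.25 without sgDMAP1 replicate 2. Some other lists lay further from GAS41, also with 0 called. The G2/M list had a median of 0.41 and the NRF2 oxidative stress list one of -0.50. INSIG1 was at 21.0 and 17.3 and HMGCS1 at 13 and 12.7 with GAS41 guides.

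Against EP400, the ATPase and scaffold of the complex, 193 genes were called (1.7%), 115 higher with DMAP1 guides (1.01%) and 78 lower (0.685%). Sterol genes were 17 of the 115 and 0 of the 78, or 17 of 31 tested, with a median of 0.67. HMGCS1 was at 7.16 and 7.85 FPKM with EP400 guides (0.93 ± 0.13, limma, adjusted p = 0.00402), LSS, lanosterol synthase, at 35.1 and 35.4 against 74.0 and 59.4, and MSMO1 at 25.1 and 24.7. In these genes EP400 guides were below the sgNeg2 libraries and DMAP1 guides above them. Of 31 ATF4 genes 12 were called higher and 0 lower, with a median of 0.73. TRIB3 differed most, at 22.9 and 16.7 with EP400 guides against 98.1 and 45.7 (1.72 ± 0.33, adjusted p = 0.0181), and PCK2, mitochondrial PEP carboxykinase, was at 4.97 and 4.09 against 21.3 and 11.7. RASD1 (a Ras-like protein), ECM1 (an extracellular matrix protein) and BMF (a pro-apoptotic BH3-only protein) were the other genes of the 5 largest higher values. Of the genes lower with DMAP1 guides, IL1B, the cytokine interleukin-1 beta, was at 10.9 and 16.1 against 67.1 and 63.0 with EP400 guides (-2.21 ± 0.23, adjusted p = 0.000206). KRTAP3-1, HSD17B2, CYP24A1 and ESM1 followed, from -2.04 ± 0.35 to -1.60 ± 0.38, each at an FPKM of at most 1.45, the value of ESM1 with guide 2, in both DMAP1 libraries. KRTAP3-1, HSD17B2 and CYP24A1 were under 1 FPKM in all DMAP1 and sgNeg2 libraries and were tested only because other groups of the section exceed that level, so a difference was built into their selection. The sgNeg2 libraries had 12.7 and 12.3 for IL1B. The count of calls was 6 without sgEP400 replicate 1, 7 without sgEP400 replicate 2 and 8 without sgDMAP1 replicate 1, with 0 sterol genes and 0 ATF4 genes called in each, and 139 without sgDMAP1 replicate 2, with 12 sterol and 15 ATF4 genes. The sterol median stayed between 0.55 and 0.78 in these 4 fits.

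Against TIP60, the acetyltransferase, 4424 genes were called (38.9%), 2765 higher with DMAP1 guides (24.3%) and 1659 lower (14.6%). The split depended on scaling: 62.5% of calls were higher in the deposited scaling, 51.8% after rescaling by median ratios and 50.1% after the length trend was removed. Of 31 sterol genes 26 were called higher and 0 lower under each of these scalings, with a median of 0.99 as deposited. SREBF1 was at 45.6 and 45.1 FPKM with DMAP1 guides and 10.2 and 14.2 with TIP60 guides (1.83 ± 0.14, limma, adjusted p = 9.13e-07), and was near the sgNeg2 level with DMAP1 guides. Of 31 ATF4 genes 21 were called higher and 1 lower (12 and 2 without sgDMAP1 replicate 1), and of 46 p53 targets 15 higher and 7 lower. The p53 split also depended on scaling and on single libraries: it was 12 higher and 9 lower after rescaling, 11 and 10 with the length trend removed, 10 and 9 without sgTIP60 replicate 2 and 7 and 7 without sgDMAP1 replicate 1. CDKN1A (TIP60 238 and 154) and MDM2 (38.9 and 29.7) were not called. The 5 genes furthest below TIP60 were STRA6, the retinol transporter (2.54 and 1.51 against 127 and 86.5; -5.15 ± 0.30), KRTAP2-3, UCN2, PLAT (tissue plasminogen activator, 66.7 and 59.96 against 776 and 409) and MPP4. The 5 furthest above were KIAA0040 (8.61 and 17.8 against 0.371 and 0.637; 3.17 ± 0.41), FLRT2, COL23A1, HOMER2 and OLFM2. For STRA6 and PLAT the sgNeg2 libraries, at 1.34 and 1.89 and at 63.5 and 74.1, overlapped the DMAP1 libraries. For KIAA0040 they were at 20.9 and 19.1, above both DMAP1 libraries.

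Across the section, DMAP1 guide 1 held the highest value of the 20 libraries in 19 of the 31 sterol genes (61.3%), against 519 of all 11382 genes (4.56%). Guide 2 held it in 2 of the 31, against 151 of all 11382 genes. As a description of the list's level, the median of log2(FPKM + 1) after subtracting each gene's mean over the 20 libraries was 0.58 with guide 1 and 0.32 with guide 2. The sgNeg2 libraries were at 0.04 and 0.04, GAS41 at 0.38 and 0.28, EP400 at -0.17 and -0.23 and TIP60 at -0.45 and -0.52. Guide 1 ranked 1 and guide 2 ranked 3 of 20, with a GAS41 library between them. For the ATF4 list guide 1 ranked 2, behind an ACTL6A library, with 0.56, and guide 2 ranked 8 with 0.16, near the higher sgNeg2 library at 0.10. Guide 1 was the highest library in 12 of the 31 ATF4 genes (38.7%), 6 of the 46 p53 targets (13%) and 10 of the 40 G2/M genes (25%). Guide 2 was the highest in 0 of the 31, 0 of the 46 and 0 of the 40.

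**Figure D5:**
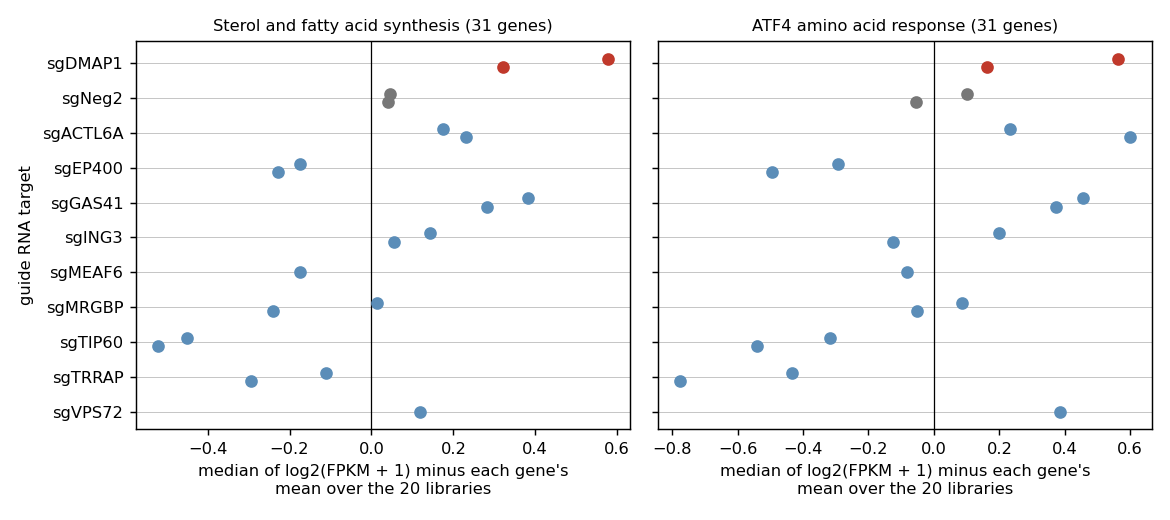
Level of the sterol list (left) and the ATF4 list (right) in each of the 20 libraries: the median over 31 genes of log2(FPKM + 1) minus each gene's mean over the libraries (horizontal axis), by guide RNA target (vertical axis). Points are libraries; for the sterol list sgDMAP1 has 0.58 and 0.32 and sgNeg2 has 0.04 and 0.04, while for the ATF4 list the guides lie apart at 0.56 and 0.16.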

How the data were processed

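RNA of A382 cells was measured in 4 libraries of this comparison and 16 further libraries of the same table section. The authors deposited 1 table of FPKM values for 19102 genes. Per the submitters' processing notes, the tools were TopHat2, Cufflinks and Cuffdiff and the build hg19; their versions and roles are not given in the sources used here. The table holds no counts and no coordinates, and 0 columns belonged to other samples. The section has 22 columns. Its second guides for MEAF6 and VPS72 have identical columns, and both were left out.

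Values were analysed as log2(FPKM + 1), pseudocount 1, with limma 3.58.1 in R 4.3.3: 1 level per target, 9 residual degrees of freedom, empirical Bayes moderation (trend on intensity), two-sided tests, Benjamini-Hochberg over 11382 genes. For the guides alone, sgDMAP1 was split into 2 levels. The smallest exact permutation p for 2 against 2 libraries is 0.333, so none is given for single values. The script was tested on simulated data. Transcript lengths, found for 97.5% of tested genes, came from GENCODE by symbol.

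The genes named were DMAP1, the other subunits, CDKN1A and MDM2; the 10 largest differences each way with both guides on 1 side of both controls and, in the higher group, a mean FPKM no lower than 5; the 10 called genes each way per guide with the same minimum; the 5 called genes each way per direct comparison; and up to 4 members with the smallest p of each list described. Some genes that the rule names are not reported here. Members and lists were chosen with earlier results of these data known, so no p-value is given for a list.

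Low values step in whole fragments, and the steps put 1 FPKM at about 8.80 and 16.9 fragments per kilobase in sgNeg2 replicates 1 and 2, and 12.5 and 13.8 with guides 1 and 2. Values near 1 FPKM therefore rest on few fragments.

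Alternatives were a pseudocount of 0.1, no filter on low values, rescaling by median ratios, the spread of the 4 libraries alone, no intensity trend, a replicate block, leaving out each library, and, added after seeing the data, removal of the trend with transcript length and a replicate block in the comparisons with GAS41, EP400 and TIP60.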

Additional observations from a re-analysis of the deposited data

How the results depend on the processing

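The pooled comparison of sgDMAP1 with sgNeg2 had 0 calls, and 0 with the pseudocount of 0.1, without the filter, with the spread of the 4 libraries (1288 genes at an unadjusted p under 0.05) and without the intensity trend. It had 1 call, DMAP1, after rescaling, after the length trend was removed and with the replicate block. Leaving out 1 library gave 0 to 40 calls, the 40 without sgDMAP1 replicate 2. DMAP1 mRNA stayed lower in every alternative run. With both guides in the fit it passed the threshold after rescaling (-1.20), with the length trend removed (-1.17) and with the replicate block (-1.22), and not in the other alternatives. Leaving out 1 library gave -1.42 to -1.01. Guide 1 had 18 calls without the filter, 66 after rescaling, 90 with the length trend removed and 0 to 1 without a control library. Without the filter guide 2 had 12 calls and the guides differed in 15 genes. The GAS41 count was 11 with the pseudocount of 0.1, 1 without the filter, 12 after rescaling, 11 with the length trend removed and 0 to 19 with 1 library left out. The EP400 count was 100 without the filter, 572 with the length trend removed and 6 to 139 with 1 library left out. The TIP60 count kept within 1.5 times in all alternatives run. With 1 library left out, CDKN1A ranged from -0.017 (without sgDMAP1 replicate 1) to 0.24 and H2AFX from -0.079 (without sgNeg2 replicate 2) to 0.48, each changing sign. The labels' replicate numbers were not taken to pair the libraries: over genes, the deviations of same-numbered libraries had a correlation of 0.07 between sgDMAP1 and sgNeg2, -0.051 with sgGAS41, 0.13 with sgEP400 and 0.21 with sgTIP60, and 12 of all 36 pairs of groups in the section were over 0.1. With the replicate block, chosen after seeing the data for these comparisons, the count was 4 against GAS41, 268 against EP400 and 4564 against TIP60. Each compared group has 1 library of each number, so the block could alter only the error of a difference and not its size or direction. Beyond DMAP1, where a call or a sign changed, the cause was not tested. No counts were available, so weakly expressed genes have an error that FPKM does not show.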

Other observations

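The remaining lists are given as counts for the comparison of DMAP1 guides with sgNeg2, where 19% of all genes had both guides above both controls and 22.9% both below. Proteasome subunits had 3 of 37 members above and 3 below, cytosolic ribosomal proteins 3 of 66 above and 3 below, and mitochondrial ribosomal proteins 4 of 71 above and 13 below. The cytosolic ribosomal proteins had a median of 0.15 with guide 1 and -0.05 with guide 2, and the sgNeg2 libraries differed by a median of 0.29 in them. Ribosome biogenesis genes had 15 of 43 above and 2 below, with a median of 0.09. Genes of homologous recombination and damage signalling had 12 of 32 above and 2 below. The NRF2 oxidative stress list had medians of 0.22 with guide 1 and -0.06 with guide 2. Hypoxia and glycolysis genes had 5 of 34 above and 6 below, cytosolic heat shock genes 5 of 26 above and 2 below, collagens 4 of 20 above and 5 below, and immediate early factors 8 of 22 above and 6 below. Inflammatory cytokines had 4 of 17 above and 3 below, MHC class I genes 3 of 14 above and 5 below, and the insulin-like growth factor binding and TGF-beta family 11 of 25 above and 5 below. The S100 family had 2 of 9 above and 1 below, and neural progenitor and glioblastoma markers 2 of 13 above and 5 below. Of 15 keratin-associated protein and cornified envelope genes 2 were tested, both above both controls, and of 10 metallothioneins 2 were tested, both overlapping.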
